A study of Mus musculus with 141 samples.

Results

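The genes described here are the 6 that build the coat of caveolae in epithelial and endothelial cells, out of 17136 genes in the count table: the caveolins *Cav1* and *Cav2*, the cavins *Ptrf*, *Sdpr* and *Prkcdbp* (now named Cavin1, Cavin2 and Cavin3), and the ATPase gene *Ehd2*. They were chosen by name, for membership of the coat, and each was followed over lung cells sorted from an Aqp5 reporter mouse. All cells came from 1 male ACID;R26tdTomato mouse of 4 months on a 129SV background (129S6/SvEvTac in the study's methods). In this mouse a cassette for Cre and DsRed sits in exon 1 of the endogenous *Aqp5* gene, no specific DsRed signal was seen in the study, and Cre removes a stop cassette at ROSA26 so that a cell and its descendants make tdTomato, which marks a history of *Aqp5* activity and not only current activity. Lungs were digested with enzymes, cells negative for CD31 and CD45 and positive for E-cadherin and tdTomato were sorted, and each was captured and lysed in its own chamber of a Fluidigm C1 mRNA Seq HT chip, which reads the 3′ ends of transcripts. No tdTomato-negative or second-animal group was analysed here, so the only comparisons are between classes of cells within this mouse, no test over animals was possible, and every interval given covers counting error only, of reads or, for shares, of cells.

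Caveolae are small flask-shaped pits of the plasma membrane, abundant in alveolar type 1 (AT1) cells, the thin cells that cover most of the gas-exchange surface, and in endothelium. Caveolins insert into the inner leaflet as oligomers, cavins assemble on top of them as a peripheral coat, and EHD2 forms rings at the neck that hold the pit at the surface. Caveolin-1 and cavin-1 (PTRF) are both needed for a pit to form in non-muscle cells, whereas the other members shape, stabilise or modify it.

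Of the deposited cells, 92 had under 0.15 of their reads on the 37 mitochondrial genes and were kept, and 49 were removed. Read totals of the kept cells ran from 142003 to 2170760 with a median of 553963. Forming the classes used no coat gene: 45 cells reached 5000 CPM (reads of a gene in a cell scaled to a fixed total of reads, counts per 1000000) of *Ager*, a receptor gene that marks AT1 cells, 11 reached 8000 CPM of *Sftpc*, the surfactant protein C gene that marks alveolar type 2 (AT2) cells, 36 reached neither, and 0 reached both. The *Ager* border was wide, since the lowest AT1 cell held 9335 CPM and the highest cell outside held 1402 CPM. Around the *Sftpc* border the lowest AT2 cell held 25437 CPM, the next held 114388 CPM, and the highest cell outside held 7774 CPM.

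The class labels were checked on markers that the cuts did not use. AT1 cells carried 25470 CPM over 10 AT1 markers, led by *Hopx*, against 1052 CPM in AT2 cells and 773 CPM in the rest. AT2 cells carried 54191 CPM over 8 AT2 markers, led by *Sftpa1*, against 358 CPM in AT1 cells and 2279 CPM in the rest, where club-like cells had 5284 CPM and 4 cells had at least 50% of the list at 100 CPM or more. Each cell of the rest was given the club, basal, ciliated or fibroblast list with the highest share of markers at 100 CPM or more, where that share was at least 50% and untied, which made 12 cells club-like, 13 ciliated-like and 6 basal-like. These names are not exclusive, since 19 cells of the rest reached 50% of the club list, among them 4 called basal-like and 3 called ciliated-like, and so did 4 AT1 cells and 1 AT2 cell. One of the ciliated-like cells among them, at chip column 9 and row 33, had *Scgb1a1* at 376780 CPM and *Foxj1* at 12.1 CPM, and it went to the ciliated list with a share of 0.625 of its markers against 0.6 for the club list. A further cell, at chip column 8 and row 21, met the fibroblast list (*Dcn* 2552 CPM, *Col3a1* 1089 CPM, *Pdgfra* at 0) and carried all 4 mesothelial markers at 4725 CPM in sum, led by *Upk3b* at 2376 CPM, so it was left unnamed. A further 4 cells reached 50% of none of those 4 lists and were also left unnamed, although 1 of them reached 50% of the AT1 list (at column 7 and row 17) and 1 of the smooth muscle list.

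Endothelium is the other lung cell type rich in caveolae, and its markers were near 0 in AT1 cells. The 8 of 10 endothelial markers that were analysed summed to 0.476 CPM there, with *Pecam1* highest at 0.432 CPM and *Kdr*, *Cldn5*, *Tie1*, *Ramp2*, *Egfl7* and *Plvap* at 0. Each of the 45 AT1 cells had every one of these markers under 10 CPM. Fibroblast markers summed to 1.17 CPM in AT1 cells, mesothelial markers to 1.04 CPM and the 2 smooth muscle markers analysed to 0.0865 CPM. In the rest, the fibroblast list summed to 852 CPM (*Dcn* 692 CPM) and the endothelial list to 19.9 CPM (*Kdr* 18.5 CPM).

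The 6 genes lie on 4 chromosomes (GRCm38, GENCODE vM21). *Cav2* (chr6:17281185-17289115, plus strand) and *Cav1* (chr6:17306335-17341452, plus strand) are neighbours, with 17.2 kb between the end of *Cav2* and the start of *Cav1*. *Ptrf* is at chr11:100956733-100970887 (minus strand), *Sdpr* at chr1:51289126-51302960 (plus strand), and *Prkcdbp* and *Ehd2* are far apart on chromosome 7, at chr7:105480083-105482300 and chr7:15946958-15967567 (both minus strand). All are protein-coding genes and counts cover their exons. The annotation also places an antisense gene, Gm15581, that overlaps both *Cav1* and *Cav2*, and antisense genes over *Sdpr* and *Prkcdbp*, and reads of such partners were not separated here.

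*Cav1*, the gene of the main structural caveolin, was read in every AT1 cell. It ran from 3.26 CPM in the lowest AT1 cell through a median of 1880 CPM to 9654 CPM in the highest, and 42 of 45 cells reached 100 CPM. In AT2 cells the lowest value was 0, the median 0.674 CPM and the highest 292 CPM, so that the 2 classes overlapped in a few cells at each end. Summed over cells, *Cav1* made up 2067 CPM in AT1 (95% exact Poisson interval 2048 to 2085) and 24.1 CPM in AT2 (20.5 to 28.2), a log2 ratio of 6.42. Of the AT2 reads 64.7% were in 1 cell, and without the highest cell of each class the ratio was 7.76. The rest summed to 96.3 CPM (92.6 to 100.1), with a median of 1.43 CPM and a highest cell of 1770 CPM, a log2 ratio of AT1 over the rest of 4.42.

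Low reads of *Cav1* outside AT1 cells could not be told from background. A *Cav1* read was found in 6 of 11 AT2 cells, in 23 of 36 cells of the rest and, within these, in 6 of 13 ciliated-like cells, of which none reached 100 CPM. With each cell thinned to 90000 reads, 2 of the 13 ciliated-like and 44 of 45 AT1 cells had one. The median depth was 526381 reads in ciliated-like cells and 468718 in AT1 cells.

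*Cav2*, whose product needs caveolin-1 to reach the cell surface and joins its oligomers, was less even among AT1 cells. Its lowest AT1 value was 0, its median 329 CPM and its highest 1666 CPM, with a read in 40 of 45 cells and 100 CPM or more in 31. The AT2 cells had a median of 3.37 CPM and a highest value of 316 CPM, and 2 of 11 reached 100 CPM. The class levels were 551 CPM in AT1 (541 to 560), 75.8 CPM in AT2 (69.2 to 82.8) and 58.7 CPM in the rest (55.8 to 61.6), or log2 ratios of 2.86 over AT2 and 3.23 over the rest. The cells of AT2 and of the rest spanned much the same range, and their order for *Cav2* is not separable from the spread between cells.

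The 250 bases before the first RefSeq start (GRCm38.p6) are shown for the 2 caveolins, the one pair of coat genes with a correlation of 0.2 or more over all kept AT1 cells, and for *Sdpr*. The correlation of *Sdpr* with *Cav1* there was below 0, as were those of *Ptrf* and *Prkcdbp*. RefSeq starts were matched for 5 of the 6 genes. Each line reads 5′ to 3′ on the plus strand, and capitals mark a GC box (GGGCGG on either strand) or an AP-1 motif (TGANTCA, where N is C or G).
Cav1, chr6:17306085-17306334: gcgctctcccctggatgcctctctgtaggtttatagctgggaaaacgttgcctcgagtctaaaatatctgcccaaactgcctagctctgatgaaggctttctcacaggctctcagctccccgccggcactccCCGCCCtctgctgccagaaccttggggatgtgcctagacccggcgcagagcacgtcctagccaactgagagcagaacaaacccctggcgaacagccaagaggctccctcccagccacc
Cav2, chr6:17280935-17281184: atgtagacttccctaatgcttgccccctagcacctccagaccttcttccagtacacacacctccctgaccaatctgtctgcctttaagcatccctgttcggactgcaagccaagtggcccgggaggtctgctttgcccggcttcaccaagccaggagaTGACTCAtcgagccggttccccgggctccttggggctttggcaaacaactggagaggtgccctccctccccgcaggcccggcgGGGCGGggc
Sdpr, chr1:51288876-51289125: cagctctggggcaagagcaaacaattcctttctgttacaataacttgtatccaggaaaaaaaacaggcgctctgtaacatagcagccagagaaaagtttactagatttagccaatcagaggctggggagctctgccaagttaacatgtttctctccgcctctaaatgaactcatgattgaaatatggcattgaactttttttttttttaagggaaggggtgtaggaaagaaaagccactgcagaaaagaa
The *Cav1* window is 59.6% G and C with 10 CpG and holds 1 GC box, on the minus strand. The *Cav2* window is 62% G and C with 10 CpG and holds 1 GC box and 1 AP-1 motif, whose letters match at the same place on both strands. The *Sdpr* window is 40.4% G and C with 2 CpG and holds neither motif. The windows of *Ptrf* and *Ehd2*, which overlap exons and are not printed, each hold 1 GC box and 12 CpG, and neither gene had a correlation of 0.2 with *Cav1* within AT1 cells. A second RefSeq start of *Cav1* has a window (chr6:17307390-17307639) of 60.8% G and C with 12 CpG and neither motif. The TEAD motif GGAATG, also searched on both strands, is in the *Ptrf* window and in 0 of the other 4 genes' windows, and 12.6% of all windows hold it. Nothing is read from the motifs about the correlations. Among 32851 mouse windows of this length 32.7% hold a GC box and 4.46% an AP-1 motif, so the first is common, and matches are letters in a window and not shown sites.

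*Ptrf*, the cavin that caveolae require, was common in AT2 cells as well as in AT1 cells. AT1 cells ran from 0 through a median of 390 CPM to 3025 CPM, and AT2 cells from 0 through a median of 443 CPM to 981 CPM. The share of cells at 100 CPM or more was 33 of 45 in AT1 (73.3%, exact Clopper-Pearson interval 58.1 to 85.4) and 7 of 11 in AT2 (63.6%, 30.8 to 89.1). These intervals are over cells of 1 mouse and do not show that the classes are alike. By summed reads it was 701 CPM in AT1 (690 to 712) and 360 CPM in AT2 (345 to 375), a log2 ratio of 0.96, and of these 2 classes AT1 cells alone had values above 981 CPM.

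The *Ptrf* ratio differed between the parts of the chip. In chip columns 1 to 10 all 5 AT2 cells reached 100 CPM, with a median of 607 CPM against 304 CPM in the 26 AT1 cells, and the log2 ratio was -0.44. In columns 11 to 20, 2 of 6 AT2 cells did, with a median of 27.2 CPM against 681 CPM in the 19 AT1 cells, and the log2 ratio was 2.90. Chip position is a place on the capture plate and its part in these values was not tested. The rest had 137.6 CPM of *Ptrf* (133.3 to 142.1), a median of 6.35 CPM and 12 of 36 cells at 100 CPM, a log2 ratio of AT1 over the rest of 2.35.

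*Sdpr*, the cavin that helps the coat bend the membrane, differed widely between AT1 and AT2 cells and far less between AT1 cells and the rest. AT1 cells ran from 0 through a median of 799 CPM to 3438 CPM, and 37 of 45 reached 100 CPM. In AT2 cells the median was 0 and the highest value 109.2 CPM, in a cell that held 82.6% of the 23 reads of that class. This cell, at chip column 16 and row 6, is the AT2 cell that reached the club list, with *Scgb1a1* at 5033 CPM. The class levels of 1163 CPM in AT1 (1149 to 1177) and 3.55 CPM in AT2 (2.25 to 5.33) gave a log2 ratio of 8.36, above the 6.42 of *Cav1*. Without the highest cell of each class it was 10.7, on 4 AT2 reads left. With a lower *Sftpc* minimum for AT2 cells (log2 ratios of 5.17 and 5.33) and in chip columns 11 to 20 (7.24 and 9.77) *Sdpr* was below *Cav1*, so no order of the 2 genes is given.

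In the rest, by contrast, *Sdpr* reached 423 CPM (416 to 431), with a median of 25.6 CPM, a highest cell of 2762 CPM and 16 of 36 cells at 100 CPM, and the log2 ratio of AT1 over the rest was 1.46. Basal-like cells had 988 CPM of it, beside 1163 CPM in AT1 cells, with a median of 607 CPM and 4 of 6 cells over 100 CPM. The 4 unnamed cells without mesothelial markers had 1170 CPM, with a median of 1121 CPM and 3 of 4 cells over 100 CPM, but 60.3% of their reads were in 1 cell, without which the level was 624 CPM. Ciliated-like cells had 222 CPM, with 4 of 13 cells over 100 CPM, and club-like cells 65.6 CPM, with 4 of 12. Of the 30 cells of the rest under 100 CPM of *Cav1*, 12 had *Sdpr* at 100 CPM or more, and of these 5 had no *Cav1* read and 7 had at least 1.

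*Prkcdbp*, the cavin that binds protein kinase C delta, was read in few cells of any class. In AT1 cells the median was 0 and the highest 1929 CPM, with a read in 16 of 45 cells, 100 CPM or more in 6, and 38.2% of all reads in 1 cell. Of the AT2 reads 95.2% came from 1 cell of 713 CPM, and of the reads in the rest 79.5% came from 1 cell of 807 CPM. The class levels were 91.8, 124.9 and 51.7 CPM in AT1, AT2 and the rest, and those of AT2 and the rest came mainly from single cells. The log2 ratio to AT2 of -0.44 ran from -1.85 to 7.04 over the other settings tried and has no stable sign.

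*Ehd2*, the gene of the neck ATPase, was near 0 in nearly all cells of the rest and low in AT2 cells. It ran from 0 through a median of 43.4 CPM to 1493 CPM in AT1 cells, with a read in 36 of 45 and 100 CPM or more in 22. In AT2 cells the median was 0 and the highest 172 CPM, with 100 CPM or more in 2 of 11. In the rest no cell reached 100 CPM, and 85.3% of its 34 reads came from the cell with mesothelial and fibroblast markers. Class levels were 312 CPM in AT1 (304 to 319), 14.8 CPM in AT2 (12.01 to 18.1) and 1.26 CPM in the rest (0.871 to 1.76), or log2 ratios of 4.39 and 7.95, and 4.73 and 10.5 without the highest cell of each class. The value of 10.5 rests on 5 reads left in the rest. Club-like, basal-like and ciliated-like cells had 1, 1 and 2 *Ehd2* reads in all.

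**Figure D1:**
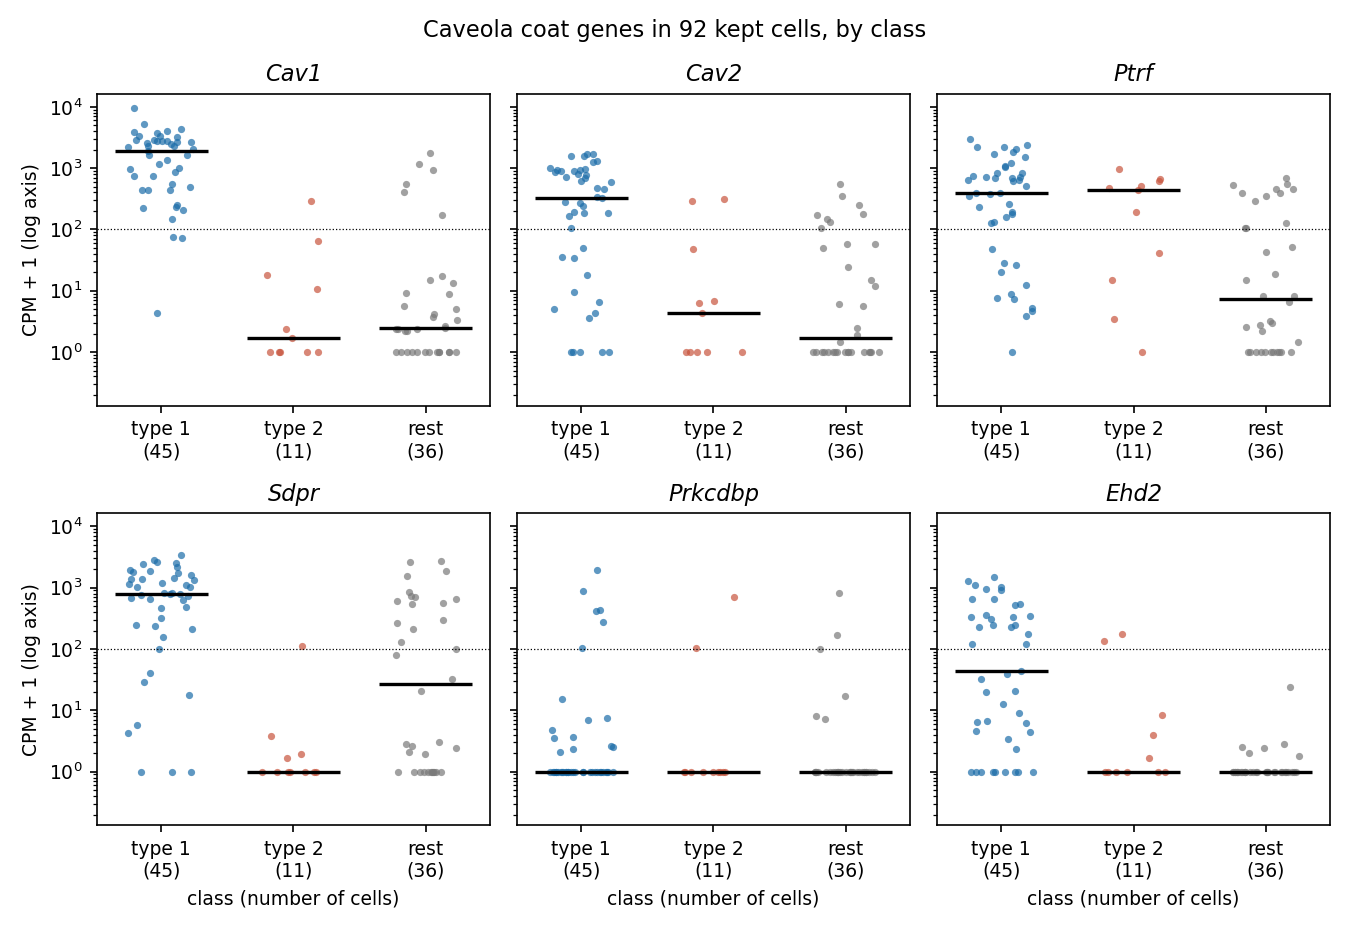
Level of each coat gene in the 92 kept cells, by class (x axis, with the number of cells), as CPM + 1 on a log axis. Points are cells, the black bar is the class median and the dotted line marks 100 CPM. AT1 is type 1 and AT2 is type 2. *Cav1* medians are 1880, 0.674 and 1.43 CPM in AT1, AT2 and the rest, whereas for *Ptrf* the AT2 median of 443 CPM lies beside the AT1 median of 390 CPM.

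Against each of the other classes, most of the coat was higher in AT1 cells, where *Cav1* was highest, but not by a common factor. Between AT2 cells and the rest, summed *Sdpr* was higher in the rest and summed *Ehd2* was higher in AT2, in kept cells. Summed *Ptrf* was 360 CPM in AT2 and 137.6 CPM in the rest, but 183 CPM and 311 CPM in removed cells. Summed *Cav1* was 96.3 CPM in the rest and 24.1 CPM in AT2. Without the highest cell of each class, the log2 ratio of AT1 was 7.76 over AT2 and 4.51 over the rest. Without cells of the rest over 100 CPM of *Cav1*, a setting chosen after seeing the data, it was 6.42 over AT2 and 9.91 over the rest. This setting removes cells by *Cav1* itself, and from the rest alone, so it had to lower the rest, and no order is read from it. In removed cells *Cav1* was at 64.6 CPM in AT2 and 3.13 CPM in the rest. No order of AT2 and the rest is given for *Cav2* or *Prkcdbp*, as theirs turned in other settings. None is given for *Cav1* or *Ptrf* either, as theirs was the opposite in removed cells. At 4-fold or more, 4 of the 6 genes (*Cav1* itself, *Cav2*, *Sdpr* and *Ehd2*) were higher in AT1 than in AT2 cells and 0 were lower. Of all 8975 genes at 10 CPM or more over the kept cells, 38.8% were that much higher and 11.8% that much lower, so a gene past this fold is not rare in this contrast. The median log2 ratio was 3.63 for the 6 genes and 0.82 for all genes. Against the rest, 4 of 6 (*Cav1*, *Cav2*, *Ptrf*, *Ehd2*) were higher and 0 lower, with 19.4% of all genes higher and 20.9% lower, and the median log2 ratio was 2.79 for the coat and 0.05 for all genes. The 2 contrasts share the AT1 cells, so their values stand side by side and are not separate support for each other.

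**Figure D2:**
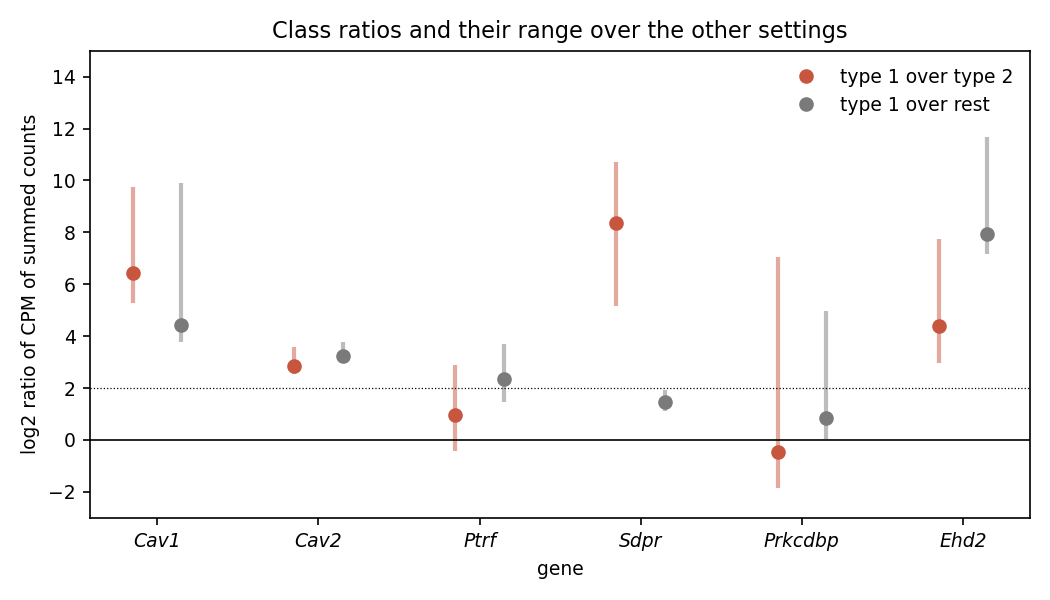
Log2 ratio of CPM of summed counts (y axis) for each coat gene (x axis), AT1 over AT2 in red and AT1 over the rest in grey. Points are the values in the text, vertical lines run from the lowest to the highest value over 15 other settings (of which 11 moved the ratio to AT2 and 12 the ratio to the rest), and the dotted line marks 4-fold. *Sdpr* has a ratio of 8.36 to AT2 and of 1.46 to the rest, and the lines of *Ptrf* and *Prkcdbp* to AT2 cross 0.

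The make-up of the coat reads differed by class. Each percent is a share of reads of the 6 genes together, set between classes for 1 gene and not between genes. *Cav1* took 42.3% of them in AT1, 3.99% in AT2 and 12.5% in the rest, and the AT2 share rests on 156 reads, 64.7% of them in 1 cell, and was 20% in removed AT2 cells. *Ptrf* took 14.4%, 59.7% and 17.9%, and *Sdpr* 23.8%, 0.589% and 55.1% in the same order. In removed cells of the rest *Ptrf* took 70.1% and *Sdpr* 16.1%. Per read of *Cav1* there were 0.339 reads of *Ptrf* in AT1 cells, 14.9 in AT2 cells and 1.43 in the rest. The AT2 value rests on few *Cav1* reads, and was 39.6 without the AT2 cell highest in *Cav1* and 2.84 in the 16 AT2 cells removed for their mitochondrial share.

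Several coat genes together were the usual state of an AT1 cell. Of the 6 genes, 5 had a read in at least 50% of AT1 cells, a property of 15.8% of all genes. At least 5 of the 6 were read in 36 of 45 AT1 cells, in 3 of 11 AT2 cells and in 5 of 36 cells of the rest. All 6 were read in 9 AT1 cells. Counting a gene at 100 CPM or more, the median was 4 genes in AT1 cells, 2 in AT2 cells and 1 in the rest, and 39 of 45 AT1 cells had 3 or more against none of 11 AT2 cells and 5 of 36 in the rest. No cell had all 6 at that level. The contrast depends on the level and number asked for, since 3 or more genes had a read in 45 of 45 AT1 cells, 7 of 11 AT2 cells and 22 of 36 cells of the rest, and 5 or more were at 100 CPM in 13 of 45 AT1 cells and in 0 of the other kept cells. At least 5 were read in 25 of 45 AT1 cells after thinning to 90000 reads.

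The 3 AT1 cells under 100 CPM of *Cav1* were not alike. The cell at chip column 12 and row 3 had 3.26 CPM of *Cav1* and under 20 CPM of every other coat gene, with 21986 CPM of *Ager*. The cell at column 4 and row 20 had 71.7 CPM of *Cav1* with 831 CPM of *Ptrf* and 2510 CPM of *Sdpr*. The cell at column 11 and row 26 had 73.7 CPM of *Cav1* with 806 CPM of *Cav2*, 1901 CPM of *Sdpr* and 1493 CPM of *Ehd2*, the highest *Ehd2* value of all AT1 cells. At the other end, the cell with most *Cav1* (9654 CPM) had 1665 CPM of *Cav2* and 158 CPM of *Ptrf*, and *Sdpr*, *Prkcdbp* and *Ehd2* at 0.

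**Figure D3:**
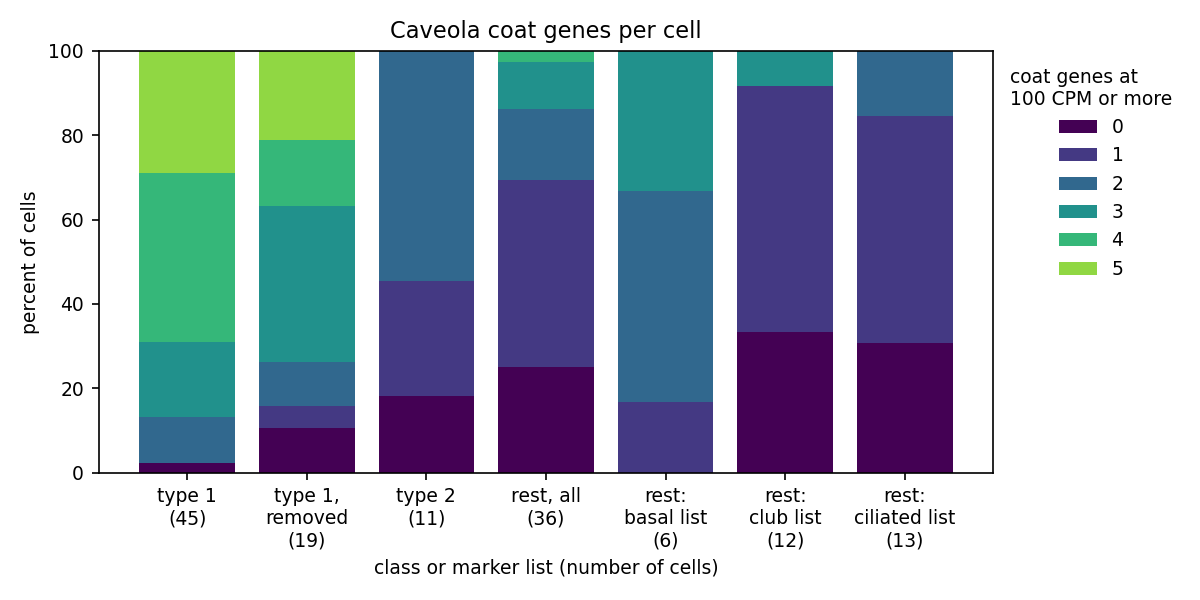
Percent of cells (y axis) by the number of coat genes at 100 CPM or more (colours) in each class or marker list (x axis, with the number of cells), including the 19 AT1 cells removed for their mitochondrial share. AT1 cells have a median of 4 genes, AT2 cells a median of 2 with none above 2, and basal-like cells a median of 2.

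Outside AT1 cells fewer coat genes reached 100 CPM together in most cases, although no AT1 cell had all 6 at that level either. Of the 10 AT2 cells under 100 CPM of *Cav1*, 6 had *Ptrf* at 100 CPM or more, 2 had *Cav2*, 2 *Ehd2*, 2 *Prkcdbp* and 1 *Sdpr*. The AT2 cell with most *Cav1*, at 292 CPM, had 443 CPM of *Ptrf*, 2.89 CPM of *Ehd2* and no read of *Cav2*, *Sdpr* or *Prkcdbp*.

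In the rest, 6 cells reached 100 CPM of *Cav1*. Of these, 3 were basal-like, the airway progenitor type marked by *Krt5* and *Trp63*, with 1169, 926 and 170 CPM of *Cav1*. In the same order these cells had 1046, 1504 and 4736 CPM of the fibroblast marker *Dcn* and 50.5, 706 and 4.92 CPM of *Trp63*, and the part of this mixed marker content in their coat levels was not tested. *Dcn* was at 1998 CPM over the basal-like cells, whose other fibroblast markers were at or near 0. The cell with 1169 CPM of *Cav1* also reached 50% of the AT1 list, with *Ager* at 16.8 CPM and *Hopx* at 1.53 CPM. It and the unnamed cell at column 7 and row 17 were the 2 cells of the rest that did so and the 2 highest in *Cav1*. That unnamed cell had *Ager* at 67.2 CPM, *Hopx* at 762 CPM and *Sftpc* at 6694 CPM, below the AT2 minimum of 8000 CPM. All 3 of these basal-like cells had under 2 CPM of *Ptrf*, although the third had 549 CPM of *Cav2* and 2649 CPM of *Sdpr*. The other 3 basal-like cells had at most 1.4 CPM of *Cav1*, so the basal-like level of 285 CPM came from 3 of 6 cells. The unnamed cell at column 7 and row 17 had 1770 CPM of *Cav1* and 1546 CPM of *Sdpr* with no *Cav2*, and a club-like cell that also carried *Pdpn* and *Krt5* had 409 CPM of *Cav1* and no *Ptrf*.

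The one cell of the rest with all 6 genes was the cell at column 8 and row 21, whose mesothelial and fibroblast markers are given above. It had 552 CPM of *Cav1*, 56.2 of *Cav2*, 392 of *Ptrf*, 838 of *Sdpr*, 170 of *Prkcdbp* and 22.9 of *Ehd2*. Of the 6 cells of the rest with *Cav1* it was the only one with *Ptrf* at 100 CPM or more.

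Over all 92 kept cells the other coat genes followed *Cav1* to differing degrees. Spearman's correlation with *Cav1* over cells was 0.60 for *Ehd2*, 0.54 for *Cav2*, 0.47 for *Sdpr*, 0.32 for *Ptrf* and 0.20 for *Prkcdbp*. All 5 reached 0.2, as did 9.15% of genes, although *Prkcdbp* did not when cells were thinned (0.10), in chip columns 1 to 10 (0.03), with Pearson's correlation on log2 values (0.13) or with library sizes without the most abundant genes (0.199). These are descriptions over cells of 1 mouse that share a library preparation, and classes of unequal *Cav1* level enter them, since *Ager*, which defined the AT1 class, had a correlation of 0.75. Among 3502 genes at 50 CPM or more *Ehd2* stood at place 42, *Cav2* at 73, *Ptrf* at 292, with *Sdpr* between these 2, and *Prkcdbp* at 549. The genes most like *Cav1* by this measure were *Hopx* (0.75), *Sparc* (0.75), *Vegfa* (0.75), *Ager* (0.75), *Spock2* (0.74), *Pmp22* (0.74), *Tspan8* (0.73), *Clic5* (0.72), *Col4a3* (0.72) and *Timp3* (0.72), none of them a coat gene.

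Within the 45 AT1 cells only *Cav2* had a correlation of 0.2 or more with *Cav1*. The correlation with *Cav1* was 0.35 for *Cav2*, 0.13 for *Ehd2*, -0.07 for *Ptrf*, -0.07 for *Prkcdbp* and -0.12 for *Sdpr*. That is 1 of 5 at 0.2 or more, where 12.1% of all genes with a value reached it, and the median was -0.07 for the 5 against 0.02 for all genes. *Cav2* stood at place 61 of 3677 genes and *Ehd2* at place 939. The *Cav2* value itself was 0.18 in the 26 cells of chip columns 1 to 10 and 0.63 in the 19 cells of columns 11 to 20. The genes most like *Cav1* within AT1 cells were *Cst3* (0.52), *Sumo2* (0.51), *Ndufs5* (0.50), *Ppt1* (0.49) and *Mettl7a1* (0.47).

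These values were set beside read depth. Within AT1 cells the total read count had a correlation of 0.12 with *Cav1* and 0.37 with *Sdpr*. After thinning every cell to 90000 reads, the correlation with *Cav1* within AT1 cells was 0.37 for *Cav2*, 0.14 for *Ehd2*, -0.09 for *Ptrf* and -0.10 for *Sdpr*. A gene read in 16 of 45 cells, such as *Prkcdbp*, has too many ties at 0 for its correlation to say much.

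**Figure D4:**
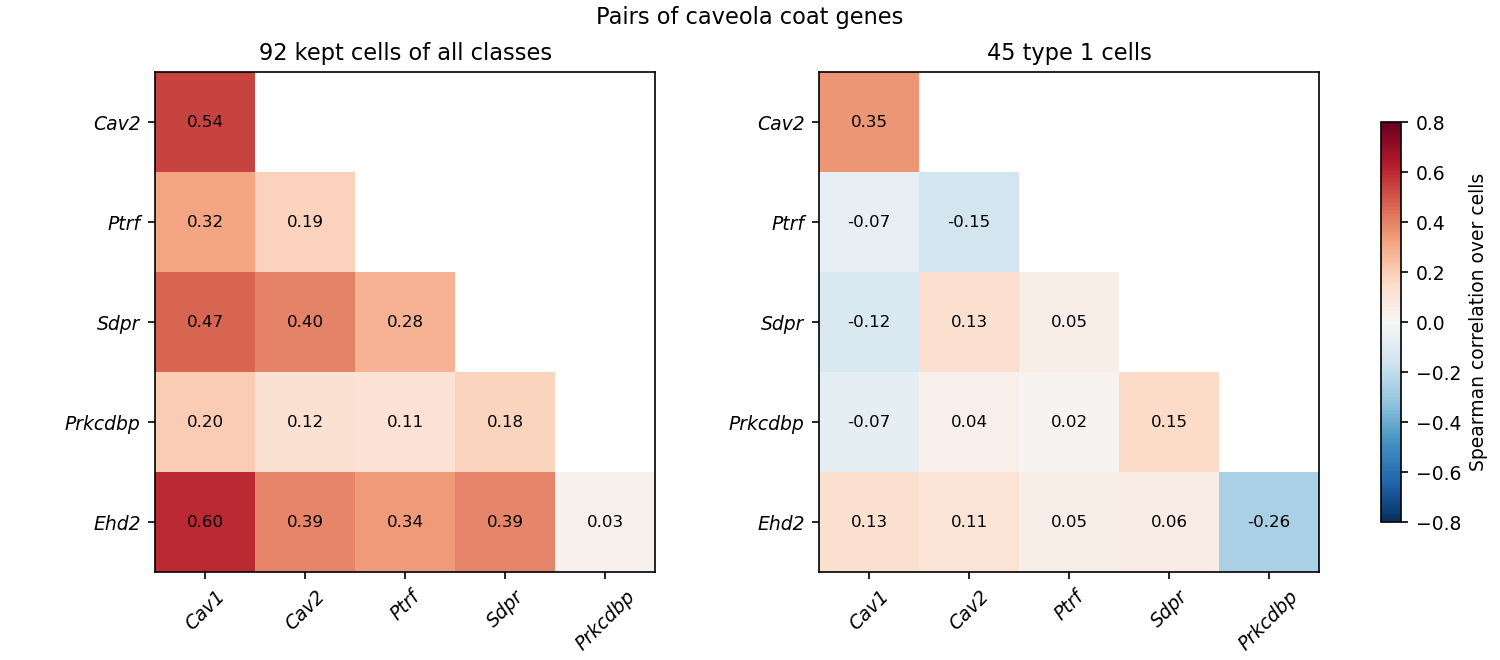
Spearman's correlation over cells for the 15 pairs of coat genes (rows and columns), over the 92 kept cells on the left and the 45 AT1 cells on the right, on a colour scale from -0.8 to 0.8. On the left all 15 pairs lie above 0 with a median of 0.318, and on the right the median is 0.048 and only *Cav1* with *Cav2* reaches 0.2.

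The 15 pairs of coat genes differed in the same way between all cells and AT1 cells. Over the 92 cells all 15 pairs of coat genes had correlations above 0, 10 of them at 0.2 or more, with a median of 0.318, where 6.55% of all gene pairs reached 0.2. Within AT1 cells 10 of 15 were above 0 and 1 was at 0.2 or more, beside 13.5% of all gene pairs, with a median of 0.048 and a lowest value of -0.26 for *Prkcdbp* with *Ehd2*. Among AT1 cells of chip columns 1 to 10 the 1 pair at 0.2 or more was *Ptrf* with *Ehd2* (0.31), and in columns 11 to 20 there were 5. The shares of all gene pairs were not computed for these parts, so the counts are a description. Within the rest the median was 0.0999 over 36 cells of mixed type, with 6 pairs at 0.2 or more, beside 16.4% of all gene pairs. In the rest *Prkcdbp* had a correlation of 0.47 with *Cav1*, *Ehd2* 0.39, *Sdpr* 0.20, *Cav2* -0.02 and *Ptrf* -0.17. Thinned to 90000 reads, *Cav2* had 0.32, *Ehd2* 0.19 and *Sdpr* 0.218, all 3 on the other side of 0.2 from the values above (0.196 for *Sdpr*). *Prkcdbp* was read in 6 of these 36 cells alone, and in 5 after thinning. Within the 19 AT1 cells removed for their mitochondrial share, 10 of 15 pairs and 3 of the 5 correlations with *Cav1* were at 0.2 or more, but so were 24.2% of all gene pairs and 31.5% of all genes with *Cav1*. In the 11 AT2 cells *Ehd2* had a correlation of 0.43, *Cav2* 0.21, *Sdpr* 0.13, *Ptrf* -0.10 and *Prkcdbp* -0.47, and *Cav1* was at 0 in 5 of these cells.

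**Figure D5:**
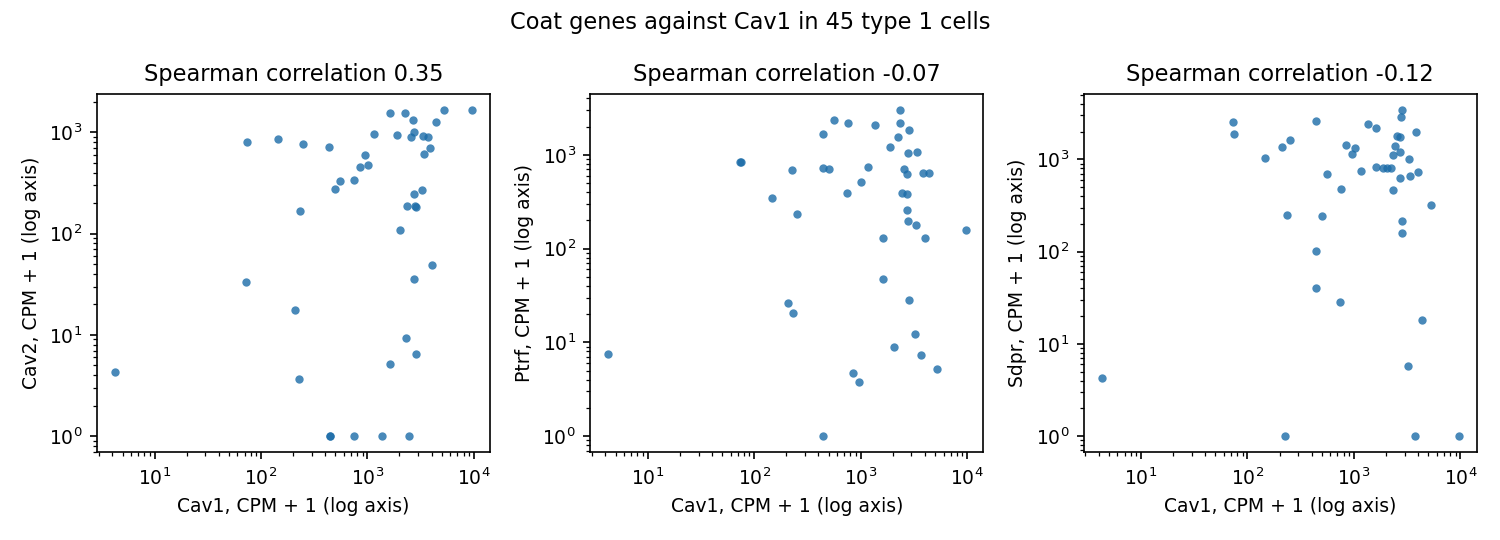
*Cav2*, *Ptrf* and *Sdpr* (y axes, CPM + 1, log axis) against *Cav1* (x axis, CPM + 1, log axis) in the 45 AT1 cells, each point a cell. The correlation is 0.35, -0.07 and -0.12, and the 5 cells without *Cav2* lie between 439 and 2443 CPM of *Cav1*.

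Other genes of the caveola pathway were taken from a list of partners, of which 10 of 14 were analysed here and 8 were at 10 CPM or more. Against AT2 cells 4 of 8 were at least 4-fold higher in AT1 (*Abl1*, *Dnm2*, *Ehd1* and *Pacsin3*) and 0 lower, with a median log2 ratio of 1.58, beside the 38.8% of all genes that were higher and 11.8% lower. *Ehd1* passed the 10 CPM minimum through AT1 cells alone, so it had to be higher there, and these counts are a description. All AT1 reads of *Pacsin3* came from 1 cell. With the highest cell of each gene left out of both classes, a setting chosen after seeing the data, 4 of 8 were higher (*Ehd4* in place of *Pacsin3*) and 0 lower, with a median of 1.93, beside 46.3% of all genes higher and 9.34% lower. *Dnm2*, the dynamin that cuts pits from the membrane, had 75.8 CPM in AT1 and 2.78 CPM in AT2. It was read in 14 of 45 AT1 cells, and 94.4% of its 18 AT2 reads were in 1 cell. In removed cells the order was the opposite, with 86.8 CPM in AT1 and 137.3 CPM in AT2, where 99.7% of the reads were in 1 cell. *Abl1*, a tyrosine kinase, had 75.6 CPM in AT1 and no read in AT2, at least 163-fold higher when AT2 is set to 3 counts over the class. It was read in 12 of 45 AT1 cells, 34.5% of its AT1 reads were in 1 cell, and without that cell the bound was 108.6-fold. *Ehd1*, a relative of *Ehd2* that acts in endosome recycling, had 1401 reads in AT1 and 2 in AT2, a ratio of 196 with a counting interval of 54.2 to 1621. It was read in 11 of 45 AT1 cells and 2 of 11 AT2 cells, 45.3% of the AT1 reads were in 1 cell, and without that cell the ratio to the same 2 reads was 142 (39.2 to 1174).

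Against the rest 3 of 8 partners were at least 4-fold higher in AT1 (*Ehd1*, *Src* and *Pacsin2*) and 0 lower, with a median log2 ratio of 1.30, where 19.4% of all genes were that much higher and 20.9% lower. With the highest cell of each gene left out of both classes it was 4 of 8 (with *Ehd4*) and 0 lower, with a median of 2.02, beside 23.9% of all genes higher and 25.6% lower. *Ehd1*, which passed the 10 CPM minimum through AT1 cells alone, is in both counts and had to be higher here too. *Src*, the kinase that phosphorylates caveolin-1, had 172 CPM in AT1, 193 CPM in AT2 and 11.9 CPM in the rest. Of its reads 50.6% in AT2 and 51.1% in the rest were in 1 cell. Without the highest cell of each class its log2 ratio to AT2 went from -0.17 to 0.27. In removed cells *Src* was at 107.8 CPM in AT1 and 0.909 CPM in AT2. *Pacsin2*, whose F-BAR domain bends membrane at caveolae, had 277 CPM in AT1, 268 CPM in AT2 and 54.5 CPM in the rest. Of its reads 44.8% in AT2 and 56% in the rest were in 1 cell. For both genes, as for *Ptrf*, the level in the rest was the lowest of the 3 classes in kept cells. *Flna*, the actin crosslinker that tethers caveolae, had 102.6 CPM in AT1 and 139.7 CPM in the rest, with AT2 between them. A single cell held 57.3% of its AT2 reads. Its log2 ratio of AT1 over AT2 went from -0.27 to 0.65 without the highest cell of each class. The ratio of AT1 over the rest stayed below 0 there, at -0.29. AT2 was then the lowest class, so its place in this order depends on single cells.

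Genes of other membrane domains give the setting. *Flot1*, of the flotillins that form separate, caveolin-free domains, had 104.6 CPM in AT1, 129.1 in AT2 and 125.5 in the rest. Its AT2 level rests on 3 of 11 cells, and 71.4% of the AT2 reads were in 1 cell. Within the rest it was at 335 CPM in ciliated-like, 2.37 CPM in club-like and 0.201 CPM in basal-like cells. *Flot2* was under 10 CPM over all kept cells, with 12.8 CPM in AT1. Of 9 clathrin coat genes at 10 CPM or more, 1 (*Ap2b1*, log2 ratio 4.48) was at least 4-fold higher in AT1 than in AT2 and 2 (*Ap2a2*, 3.26, and *Ap2b1*, 3.53) than in the rest, with 0 lower in either, beside 38.8% and 19.4% of all genes higher and 11.8% and 20.9% lower. *Ap2b1* passed the 10 CPM minimum through AT1 cells alone, so it had to be higher there, and 77.4% of its AT1 reads came from 1 cell. With the highest cell of each gene left out of both classes, 6 of 9 were higher than in AT2 and 1 lower (*Ap2s1*). Their median log2 ratio was 2.97, where 46.3% of all genes were higher and 9.34% lower, with a median of 1.46. Against the rest 2 were higher and 2 lower (*Ap2s1* and *Epn1*), with a median of -0.27. There 23.9% of all genes were higher and 25.6% lower, with a median of 0.09. One cell is a larger part of the 11 AT2 cells than of the 45 AT1 cells, so that trim lowers AT2 levels more. The clathrin median log2 ratios of 0.53 and -0.35 stand beside 3.63 and 2.79 for the caveola coat, and the trimmed 2.97 and -0.27 beside 4.10 and 2.95, so the gap to AT2 depends on single cells. Clathrin heavy chain, *Cltc*, had 198, 101.3 and 153 CPM in AT1, AT2 and the rest. Of its AT2 reads 79.1% were in 1 cell, and without the highest cell of each class its log2 ratio to AT2 went from 0.97 to 2.81.

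The class ratios were recomputed without cells of doubtful identity and without the highest cells. Leaving out the 4 AT1 cells and 1 AT2 cell that reached 50% of the club list, a setting chosen after seeing the data, kept the counts at 4 of 6 in both contrasts, with *Sdpr* at a log2 ratio of 10.9 over AT2 (4 AT2 reads), *Ehd2* at 5.004 and *Prkcdbp* at -1.03. Leaving out 2 cells of the rest that carried markers of other types made it 5 of 6 over the rest, as the log2 ratio of *Prkcdbp* to the rest went from 0.83 to 4.96. The share of all genes past this fold was not computed for these 2 settings, so their counts are a description only. Leaving out the highest cell of each class for each gene made it 5 of 6 in both contrasts, with *Prkcdbp* now among them, at 2.37 over the rest, beside 46.3% and 23.9% of all genes. In that setting *Cav2* was at 3.47 and *Ptrf* at 1.15 over AT2.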

How the data were processed

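One mouse gave all 141 cells, and no cell type, treatment or animal replicate was labelled, so classes were set on *Ager* and *Sftpc* alone. The authors used Trim Galore for trimming, HISAT2 for alignment (GRCm38) and featureCounts for the gene counts (versions not given in the sources used here), and the deposited values are raw read counts per gene and cell, not corrected for amplification duplicates. The strand setting of the counting is not given in the sources used here. The study kept cells with over 90000 reads, over 500 genes and a mitochondrial share under 0.15. All 141 cells of the table pass the first 2, and the last left 92, the cell number the study states. Members and lists were chosen with earlier results of these data known. Per-sample columns left out numbered 0.

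CPM were the reads of a gene divided by all reads of the cell, per 1000000, and class CPM came from counts summed over its cells (23130868 reads in AT1, 6477051 in AT2, 27047343 in the rest). A class under 3 counts was set to 3 for a log2 ratio. Intervals are 95% exact Poisson or Clopper-Pearson. Since reads carry no independent check on amplification and cells are not animals, no p-value was computed. Genes were named as members, as members of the lists, and as the 10 genes over kept cells and 5 within AT1 cells with the highest Spearman correlation to *Cav1*. No doublet caller was run. Windows came from RefSeq (GRCm38.p6) and gene positions from GENCODE. The code was tested on simulated data. Alternatives covered the filter, both cuts, depth, weight of cells, library size, chip columns and detection. The software was matplotlib 3.10.9, pandas 2.3.3, scipy 1.17.1 and numpy 2.4.6 under Python 3.11.15.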

Additional observations from a re-analysis of the deposited data

Results flagged for a closer look

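The 49 cells removed for a mitochondrial share of 0.15 or more were left out of the class levels above and entered only the settings that used all cells and a few values set beside those of kept cells, and coat genes had reads in them. By the same cuts 19 were AT1, 16 were AT2 and 14 were neither. In the 14 *Ptrf* was at 311 CPM, with a median of 9.02 CPM and a highest cell of 2132 CPM, above the removed AT2 cells and against the order of AT2 over the rest in kept cells, and *Cav1* was at 3.13 CPM. *Cav1*, the caveolin, was at 1592 CPM in removed AT1 cells and 64.6 CPM in removed AT2 cells. *Ptrf* was at 596 CPM and 183 CPM, and *Sdpr* at 1043 CPM and 8.18 CPM, in the same order. *Cav2* was at 504 CPM and 0.682 CPM (3 reads in removed AT2 cells, against 75.8 CPM in kept ones), *Ehd2* at 170 CPM and 65.7 CPM (a read in 8 of 16 cells, against 14.8 CPM in kept AT2 cells), and *Prkcdbp* at 145.9 CPM and 0.227 CPM. In removed AT2 cells *Ptrf* had a median of 4.73 CPM, with 5 of 16 cells at 100 CPM or more, against 443 CPM and 7 of 11 in kept AT2 cells, and this difference was not tested. Within the 19 removed AT1 cells the correlation with *Cav1* was 0.46 for *Prkcdbp*, 0.41 for *Sdpr*, 0.40 for *Cav2*, -0.05 for *Ehd2* and -0.15 for *Ptrf*, and 31.5% of all genes reached 0.2 in these cells. In the removed AT1 class 99.1% of *Prkcdbp* reads came from 1 cell.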

How the results depend on the processing

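Against the 4 coat genes at 4-fold or more over AT2 and over the rest, other settings, including a 2-fold minimum, gave 4 to 6 and 3 to 5. Among these settings the share of all genes past the fold was computed only without the highest cell of each class, so the other counts are a description. The 5 genes with a correlation of 0.2 or more over kept cells became 4 to 5 (*Prkcdbp* lost). The 36 AT1 cells with at least 5 of 6 genes became 18 (of 19 AT1 cells) at a mitochondrial maximum of 0.10, 22 of 26 in chip columns 1 to 10, 14 of 19 in columns 11 to 20, and 13 of 45 when a gene counted at 100 CPM or more, a setting chosen after seeing the data. The first 3 have fewer cells. On all 45 cells it was 25 when thinned to 90000 reads and 26 when a gene needed 3 reads. Within AT1 cells the number of coat genes with a correlation of 0.2 or more went from 1 to 0 in chip columns 1 to 10, and the cause was not tested. *Ptrf* over AT2 ran from -0.44 to 2.90 (log2) and kept its sign in 10 of the 11 settings that moved it, and *Prkcdbp* ran from -1.85 to 7.04 and kept it in 5 of 11, whereas *Cav1* (5.27 to 9.77), *Cav2* (2.55 to 3.57), *Sdpr* (5.17 to 10.7) and *Ehd2* (2.96 to 7.74) stayed above 0 in all 11. The other 4 settings had the same AT1 and AT2 cells. No paired analysis was possible because all cells form 1 labelled group. With 1 mouse and 11 AT2 cells, differences between animals and low levels in AT2 cells are beyond what this depth can show.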
